A study of Mus musculus with 6 samples.

Results

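The genes described here are subunits of the transcription factor NF-kB and genes grouped with them as its feedback inhibitors: Nfkb1, Nfkb2, Rela, Relb, Nfkbia, Nfkbiz, Tnfaip3, Birc3, Tnip1 and Zc3h12a. The grouping is broad: Nfkbiz also helps switch on some targets, and Birc3 encodes a ubiquitin ligase of the TNF receptor complex. The genes were taken by symbol from a deposited table of 30071 genes, and all 10 symbols were found once each. The table came from the mouse pre-osteoblast line MC3T3-E1, grown on polyetheretherketone (PEEK), an implant polymer, with a nano- and microstructured surface. In 3 libraries the cells also received supernatant of the mouse macrophage line RAW264.7, and in 3 libraries they grew on the structured PEEK alone. Both groups thus share the cell line and the surface, and the supernatant is the labelled difference. The sources used here give neither the time of exposure nor what the macrophages were grown on.

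NF-kB is a dimer of Rel proteins held in the cytoplasm by IkB proteins. Signals from receptors such as those for TNF, interleukin-1 and bacterial products activate IkB kinases, the IkB proteins are degraded, and the dimer enters the nucleus and switches on cytokine, adhesion and survival genes. Among the genes it induces are its own inhibitors and several of its subunits, so their transcripts are often read as a record of recent NF-kB activity. In osteoblast lineage cells the pathway is known for the response to inflammatory cytokines, which restrains matrix formation and raises signals to osteoclasts.

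Total counts ran from 74927500 to 80861720 with supernatant and from 76895736 to 82803173 on PEEK alone. Replicate 1 with supernatant differed from the other libraries of its group by a mean chi-square per gene of 102 and 112, whereas replicates 2 and 3 with supernatant differed by 34.7 and replicates 2 and 3 on PEEK alone by 25.4. It differed less from replicates 1, 2 and 3 on PEEK alone, by 70.6, 79.0 and 93.8, than from its own group. Replicate 1 on PEEK alone also stood apart, differing by 60.3 and 56.3 from the other libraries of its group. In both groups, replicate 1 is the library whose title lacks the biological replicate wording that the other titles carry. Replicate 1 with supernatant also held the most Alpl, at 20.6 FPKM (fragments per kilobase of transcript, scaled to library depth), against 5.95 and 4.91 FPKM in replicates 2 and 3 with supernatant and 3.93, 7.08 and 6.46 FPKM on PEEK alone. Runx2 and Col1a2, which mark the osteoblast lineage, were at 16.0 FPKM or more and 350.0 FPKM or more with supernatant and at 15.0 FPKM or more and 511 FPKM or more on PEEK alone, while Bglap, a marker of mature osteoblasts, had at most 17 counts. Col1a1, from the same list of osteoblast markers, was lower, at 1.76 to 3.54 FPKM with supernatant and 2.86 to 3.44 FPKM on PEEK alone. Of the 9 osteoblast markers tested, 7 had their highest FPKM in replicate 1 with supernatant, beside 27.6% of all tested genes. Of 10 macrophage markers 7 were in the table. Their summed level was 8.09 to 12.1 CPM (counts scaled to library size) with supernatant and 9.98 to 13.2 CPM on PEEK alone. Most of it was Cd14, at 5.49, 8.43 and 7.90 CPM with supernatant and 7.27, 8.63 and 8.66 CPM on PEEK alone. Ptprc, a gene of leukocytes in general, had 0, 0 and 4 counts with supernatant and 0 in every library on PEEK alone.

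No subunit or feedback inhibitor differed with supernatant by a test over all genes. By edgeR's quasi-likelihood test with a Benjamini-Hochberg adjusted p under 0.05 as threshold, 0 of the 10 genes were called, against 0.0165% of the 18177 genes tested. The smallest adjusted p among the 10 was 0.492, for Nfkbiz. At an unadjusted p under 0.05, 1 of the 10 passed, Nfkbiz, against 8.95% of all tested genes; DESeq2 called 0 of the 10, against 1.73% of all genes, and had the same count of 1 at an unadjusted p under 0.05, against 9.75%. The log2 fold changes (with supernatant minus PEEK alone) were above 0 for 5 genes and below 0 for 5, with a median of 0.0079 beside −0.0093 over all tested genes. All 10 passed the filter on low counts, with 339 to 15431 counts per library.

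**Figure D1:**
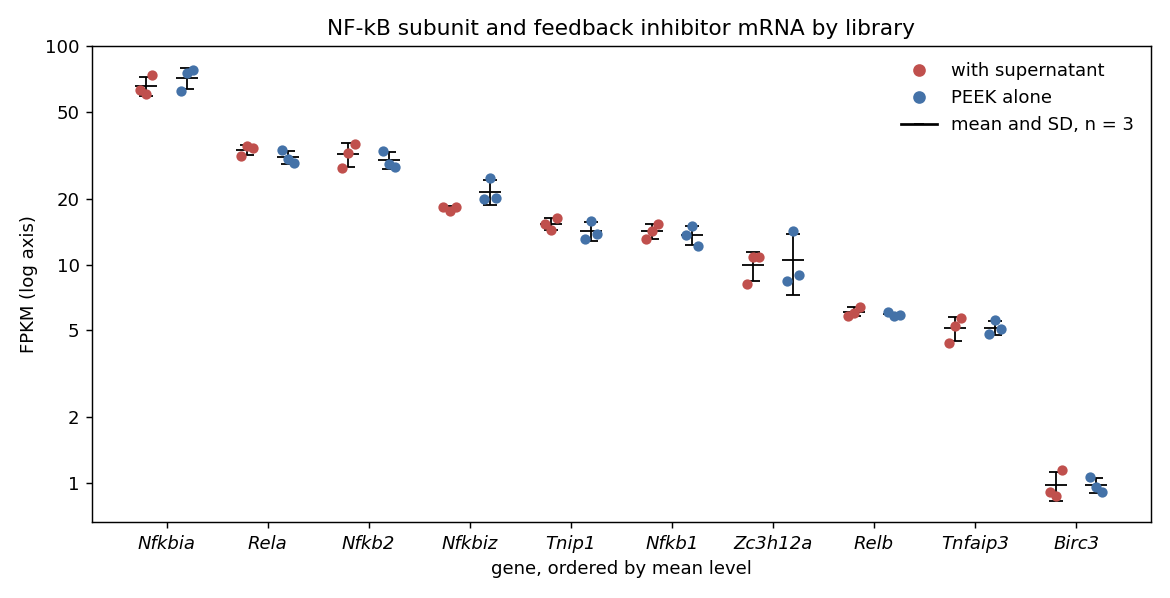
FPKM of each gene (log axis) in the 3 libraries with supernatant (left, red) and the 3 on PEEK alone (right, blue); points are libraries and bars the mean and SD. The order of the genes by mean level is the same in both groups, from Nfkbia at 65.9 and 71.9 FPKM to Birc3 at 0.975 and 0.977 FPKM.

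Per length of transcript, Nfkbia mRNA was the most abundant of the 10 and Birc3 the least. The order of the mean levels in FPKM was Nfkbia, Rela, Nfkb2, Nfkbiz, Tnip1, Nfkb1, Zc3h12a, Relb, Tnfaip3 and Birc3 both with supernatant and on PEEK alone. The libraries of Rela and Nfkb2 overlapped in both groups, as did those of Tnip1 and Nfkb1, and those of Nfkb1 and Zc3h12a overlapped on PEEK alone. The other neighbours in that order did not overlap. Against the median of 3.52 FPKM over all tested genes, 9 of the 10 stood above it, and Birc3 below.

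Rela encodes p65, the subunit with a strong activation domain that forms the classical dimer. Rela had 31.5, 35.0 and 34.4 FPKM in replicates 1, 2 and 3 with supernatant, against 33.4, 30.4 and 29.2 FPKM on PEEK alone. The groups overlapped, since replicate 1 with supernatant lay below replicate 1 on PEEK alone. EdgeR gave a log2 fold change of 0.10 (SE 0.085, adjusted p = 0.767) with a 95% interval of −0.089 to 0.30. In bulk RNA, fewer cells expressing a gene and less of its RNA per cell cannot be told apart.

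Nfkb1 encodes p105, the precursor that is processed to p50, the usual partner of p65. Nfkb1 had 13.1, 14.3 and 15.3 FPKM in replicates 1, 2 and 3 with supernatant, against 13.7, 15.0 and 12.2 FPKM on PEEK alone. The 3 values of each group spanned nearly the same range. The change on the log2 scale was 0.049 (SE 0.10, edgeR adjusted p = 0.921, 95% interval −0.19 to 0.28). Nfkb1 gave the most counts of the 10 in every library, 12528 to 15336 with supernatant and 12075 to 15431 on PEEK alone, although 5 of the others had a higher level per length.

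Nfkb2 encodes p100, which restrains NF-kB and is processed to p52 in the noncanonical branch of the pathway. Nfkb2 had 27.7, 32.6 and 35.6 FPKM in replicates 1, 2 and 3 with supernatant, against 33.1, 28.9 and 28.0 FPKM on PEEK alone. Both the lowest and the highest of the 6 values were with supernatant. On the log2 scale the change was 0.080 (SE 0.11, edgeR adjusted p = 0.876, 95% interval −0.18 to 0.34). Its interval in the deposited coordinates overlaps Psd by 299 bases and 4833438C02Rik by 1317 bases, both on the other strand; the sources used here do not say whether reads were counted by strand. Psd had 3186 to 3684 counts with supernatant and 2926 to 4058 on PEEK alone, so how many of its reads entered the Nfkb2 count is uncertain.

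Relb encodes the partner of p52 and is a known NF-kB target. Relb had 5.83, 6.03 and 6.42 FPKM in replicates 1, 2 and 3 with supernatant, against 6.05, 5.82 and 5.89 FPKM on PEEK alone. The SD was 0.302 FPKM with supernatant and 0.118 FPKM on PEEK alone. Its SD within groups on the log2 CPM scale, 0.064, was the smallest of the 10 and lower than that of all but 6.10% of tested genes. Its log2 fold change was 0.029 (SE 0.091, edgeR adjusted p = 0.950, 95% interval −0.18 to 0.24).

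With Rel, the fifth subunit gene, added from the wider pathway, the subunits summed to 82.0, 91.8 and 95.3 FPKM in replicates 1, 2 and 3 with supernatant, against 90.1, 83.9 and 78.8 FPKM on PEEK alone. Rela made up 37.6 ± 1.29% of this sum with supernatant and 36.8 ± 0.493% on PEEK alone (SD, n = 3 each). Nfkb2 made up 35.6 ± 1.81% with supernatant and 35.6 ± 1.10% on PEEK alone. Nfkb1 followed at 15.9 ± 0.238% with supernatant and 16.2 ± 1.47% on PEEK alone, Relb at 6.81 ± 0.276% and 7.04 ± 0.397%, and Rel at 4.22 ± 0.521% and 4.35 ± 0.0989%, in the same order of groups. Thus by FPKM Rela and Nfkb2 were the main subunit transcripts in every library, and Rel the least. By counts, which are not divided by length, Nfkb1 was the highest in every library and Rel lay above Relb. The shares therefore depend on the transcript lengths behind the FPKM, which were not checked.

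**Figure D2:**
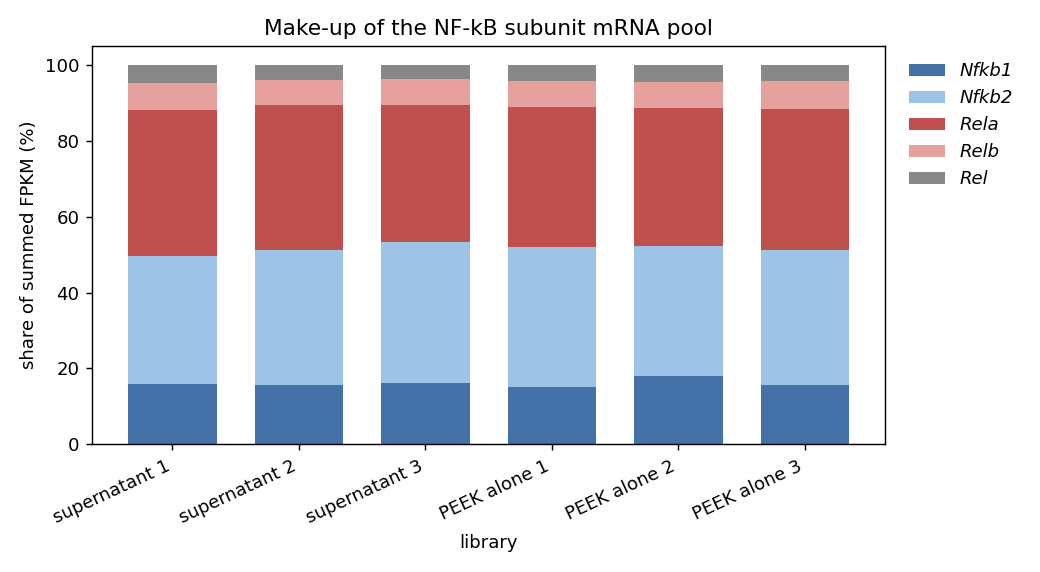
Share of each subunit gene in the summed FPKM of the 5 subunit genes (vertical axis, percent), in each library with supernatant (left) and on PEEK alone (right). Rela and Nfkb2 take most of every bar; Nfkb1 takes 15.6 to 16.1% with supernatant and 15.2 to 17.9% on PEEK alone.

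Ratios of these transcripts within a library do not depend on scaling for depth, but their size depends on the transcript lengths behind the FPKM. The ratio of Nfkb2 to Nfkb1, the precursors of p52 and p50, was 2.12, 2.28 and 2.33 with supernatant, against 2.42, 1.93 and 2.29 on PEEK alone. The ratio of Relb to Rela was 0.185, 0.172 and 0.187 with supernatant, against 0.181, 0.191 and 0.202 on PEEK alone. Neither ratio separated the groups. The differences in mean log2 ratio were 0.023 and −0.077 (exact permutation test, two-sided, p = 0.9 and p = 0.3, n = 3 each; adjusted over 4 ratios 0.9 and 0.533). A comparison of 3 libraries with 3 cannot give a p below 0.1.

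Nfkbia encodes IkB-alpha, the inhibitor that binds p65 dimers and is resynthesized on NF-kB activation. Its RefSeq promoter window is shown with those of the 3 other genes of the 10 whose window held the kB consensus, the 10-base element that NF-kB dimers bind, searched on both strands with overlapping matches counted. Each window runs 5′ to 3′ from 250 bases before to 50 bases after a transcription start in GRCm38.p6, in the direction of the gene, and capitals mark the matched bases. Where RefSeq lists more than 1 start, as for Nfkb2 and Tnfaip3, the window with most matches is given.
Nfkbia, chr12:55492598-55492897, minus strand: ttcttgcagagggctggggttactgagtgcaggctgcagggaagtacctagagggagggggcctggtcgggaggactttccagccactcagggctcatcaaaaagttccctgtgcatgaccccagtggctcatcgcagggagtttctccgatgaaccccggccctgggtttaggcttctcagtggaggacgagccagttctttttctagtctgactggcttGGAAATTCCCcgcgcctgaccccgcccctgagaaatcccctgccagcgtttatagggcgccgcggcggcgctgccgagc
Nfkb2, chr19:46304487-46304786, plus strand: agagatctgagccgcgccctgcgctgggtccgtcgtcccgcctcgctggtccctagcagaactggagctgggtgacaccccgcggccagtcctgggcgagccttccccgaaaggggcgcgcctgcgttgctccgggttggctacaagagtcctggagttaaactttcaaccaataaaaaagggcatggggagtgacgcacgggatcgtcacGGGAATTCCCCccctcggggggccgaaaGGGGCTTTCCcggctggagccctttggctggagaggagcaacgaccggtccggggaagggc
Tnfaip3, chr10:19015361-19015660, minus strand: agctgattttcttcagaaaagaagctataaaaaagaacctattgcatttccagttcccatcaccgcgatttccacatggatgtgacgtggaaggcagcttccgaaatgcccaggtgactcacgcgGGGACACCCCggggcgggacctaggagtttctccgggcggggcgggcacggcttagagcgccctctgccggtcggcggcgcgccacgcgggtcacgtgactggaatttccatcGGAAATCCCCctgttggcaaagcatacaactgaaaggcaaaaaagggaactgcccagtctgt
Tnip1, chr11:54962891-54963190, minus strand: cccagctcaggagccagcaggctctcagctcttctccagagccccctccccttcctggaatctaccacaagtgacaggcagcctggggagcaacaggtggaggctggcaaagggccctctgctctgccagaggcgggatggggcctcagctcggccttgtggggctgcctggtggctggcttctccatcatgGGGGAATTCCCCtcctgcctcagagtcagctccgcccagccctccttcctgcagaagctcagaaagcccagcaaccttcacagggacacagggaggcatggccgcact

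In Nfkbia the match GGAAATTCCC began 29 bases before the start. In Tnfaip3 the match GGAAATCCCC began 12 bases before it, with a further one at 125 bases. Tnip1 held 3 overlapping matches around GGGAATTCCC, beginning 58, 57 and 56 bases before the start. The same letters GGGAATTCCC stood in the Nfkb2 window at 39 bases before the start, with an overlapping match at 38 bases and the match GGGGCTTTCC at 11 bases. Of the 10 genes 7 had a window, and 4 of these 7 held the consensus in at least 1 window, beside 9.55% of the 27025 genes in the RefSeq table. Rela, Birc3 and Zc3h12a had no match within these bases, and Nfkb1, Relb and Nfkbiz had no entry. A match is a run of letters and does not show binding.

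Nfkbia had 63.1, 60.8 and 73.7 FPKM in replicates 1, 2 and 3 with supernatant, against 62.7, 75.2 and 77.8 FPKM on PEEK alone. The groups overlapped: replicate 3 with supernatant lay above replicate 1 on PEEK alone, which in turn lay above replicate 2 with supernatant. This gave a log2 fold change of −0.14 (SE 0.11, edgeR adjusted p = 0.768, 95% interval −0.40 to 0.12). The ratio of Nfkbia to Rela, inhibitor to subunit, was 2.00, 1.74 and 2.14 with supernatant, against 1.88, 2.47 and 2.66 on PEEK alone, a difference of −0.24 in mean log2 ratio (exact permutation test, two-sided, p = 0.3, n = 3 each; adjusted over 4 ratios 0.533).

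Nfkbiz encodes IkB-zeta, a nuclear IkB protein that helps switch on secondary NF-kB targets such as Il6 and Lcn2. Nfkbiz had 18.3, 17.6 and 18.4 FPKM in replicates 1, 2 and 3 with supernatant, against 19.9, 24.9 and 20.1 FPKM on PEEK alone. All 3 libraries with supernatant lay below all 3 on PEEK alone, which held for no other gene of the 10; over all tested genes, 7.36% were lower with supernatant without overlap. The log2 fold change was −0.27 (SE 0.10, unadjusted p = 0.0260, edgeR adjusted p = 0.492), and its 95% interval, −0.50 to −0.042, is not adjusted for the number of genes. Replicate 2 on PEEK alone held the highest value, and without it the log2 fold change was −0.16. Il6 and Lcn2, which overlapped between the groups, had log2 fold changes of −0.71 and −0.34 (edgeR adjusted p = 0.620 and 0.842). Replicate 2 on PEEK alone was the highest library for both, and without it these were −0.22 for Il6 and 0.20 for Lcn2.

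Tnfaip3 encodes A20, a ubiquitin-editing enzyme that stops signalling from TNF and Toll-like receptors. Tnfaip3 had 4.39, 5.26 and 5.71 FPKM in replicates 1, 2 and 3 with supernatant, against 4.80, 5.55 and 5.05 FPKM on PEEK alone. The values on PEEK alone all lay within the range of those with supernatant. Its log2 fold change was −0.018 (SE 0.12, edgeR adjusted p = 0.978, 95% interval −0.30 to 0.26). The ratio of Tnfaip3 to Nfkbia was 0.0696, 0.0865 and 0.0774 with supernatant, against 0.0765, 0.0738 and 0.0650 on PEEK alone, a difference of 0.11 in mean log2 ratio (exact permutation test, two-sided, p = 0.4, n = 3 each; adjusted over 4 ratios 0.533).

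Tnip1 encodes ABIN-1, which carries A20 to its substrates by binding ubiquitin chains. Tnip1 had 15.3, 14.5 and 16.4 FPKM in replicates 1, 2 and 3 with supernatant, against 13.1, 15.9 and 13.8 FPKM on PEEK alone. The groups overlapped through replicate 2 on PEEK alone. The change was 0.097 on the log2 scale (SE 0.10, edgeR adjusted p = 0.825, 95% interval −0.13 to 0.33).

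Birc3 encodes cIAP2, a ubiquitin ligase that joins the TNF receptor complex and is a known NF-kB target. Birc3 had 0.910, 0.874 and 1.14 FPKM in replicates 1, 2 and 3 with supernatant, against 1.07, 0.960 and 0.905 FPKM on PEEK alone. These levels rested on 366, 339 and 479 counts with supernatant and on 426, 414 and 373 counts on PEEK alone. The groups overlapped, and the log2 fold change was −0.013 (SE 0.17, edgeR adjusted p = 0.989, 95% interval −0.41 to 0.39). Its paralogue Birc2, which encodes cIAP1, was more abundant: it had 10.9, 8.68 and 8.89 FPKM with supernatant, against 12.4, 12.9 and 12.6 FPKM on PEEK alone. Birc2 did not pass with edgeR (log2 fold change −0.43, SE 0.096, adjusted p = 0.266), while DESeq2 called it lower (adjusted p = 0.0120). The difference between the changes of Birc2 and Birc3 was not tested.

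Zc3h12a encodes regnase-1, an RNase that degrades cytokine mRNAs such as Il6 and is itself induced by NF-kB. Zc3h12a had 8.13, 10.8 and 10.8 FPKM in replicates 1, 2 and 3 with supernatant, against 8.38, 14.3 and 8.96 FPKM on PEEK alone. Replicate 2 on PEEK alone stood above the other 5 libraries. The log2 fold change was −0.10 (SE 0.22, edgeR adjusted p = 0.925, 95% interval −0.60 to 0.40); without that library it was 0.18. It was the most variable of the 10 within groups, with an SD of 0.35 on the log2 CPM scale.

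**Figure D3:**
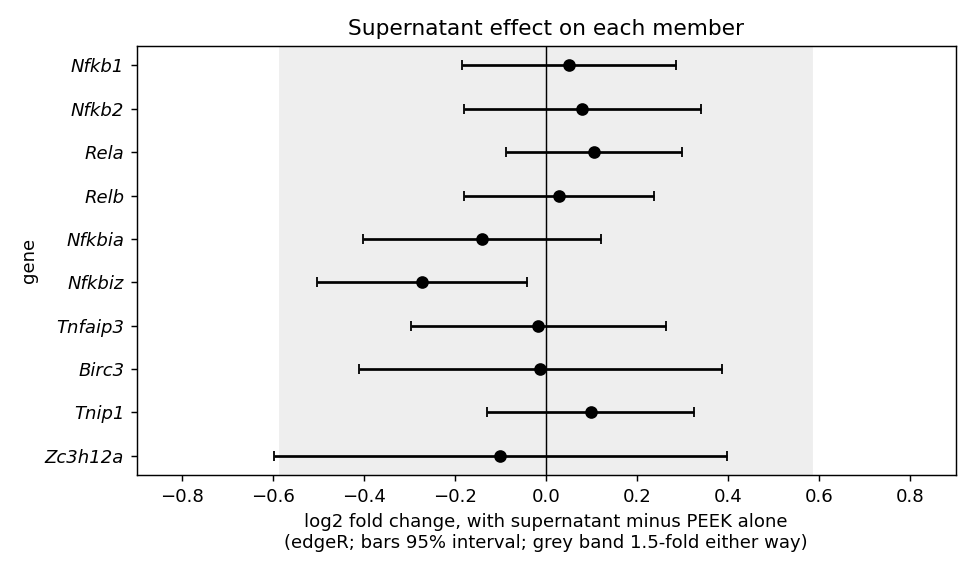
Log2 fold change of each gene (horizontal axis, with supernatant minus PEEK alone, edgeR) with its 95% interval; the grey band marks a 1.5-fold change either way. The intervals of 9 genes lie inside the band, that of Zc3h12a reaches −0.60, and that of Nfkbiz alone leaves out 0.

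For 9 of the 10 genes the 95% interval lay within a 1.5-fold change in either direction. The exception was Zc3h12a, whose interval ran from 0.661-fold to 1.32-fold. The upper bounds of the others were highest for Birc3, at 1.31-fold, and for Nfkb2, at 1.27-fold. The median size of the log2 fold change was 0.089 over the 10 genes, beside 0.15 over all tested genes, and the median SD within groups on the log2 CPM scale was 0.15 beside 0.21.

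Several of the 10 genes deviated in the same direction in individual libraries. Relative to each gene's mean over the 6 libraries on the log2 CPM scale, replicate 1 with supernatant was below the mean for 9 of the 10 genes and replicate 3 with supernatant above it for 9, with median deviations of −0.13 and 0.13. Replicate 2 with supernatant had 6 genes above and 4 below. On PEEK alone, replicates 1, 2 and 3 had 5, 6 and 3 genes above the mean. The highest FPKM fell in replicate 3 with supernatant for 6 genes: Nfkb1, Nfkb2, Relb, Tnfaip3, Birc3 and Tnip1. Over all tested genes the share was 17.3%. Replicate 1 with supernatant was highest for 0 of the 10, beside 27.6% of all tested genes. For the counts above and below the mean, no share over all tested genes is given. Replicate 1 with supernatant is the library that held the most Alpl; the part of that difference in the values of these 10 genes was not tested. Without it, edgeR gave log2 fold changes of 0.20 for Nfkb2 (adjusted p = 0.290), 0.17 for Rela (0.292) and 0.10 for Tnfaip3 (0.639), and called 0 of the 10, while the number of genes called over the whole table was 199 in place of 3.

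**Figure D4:**
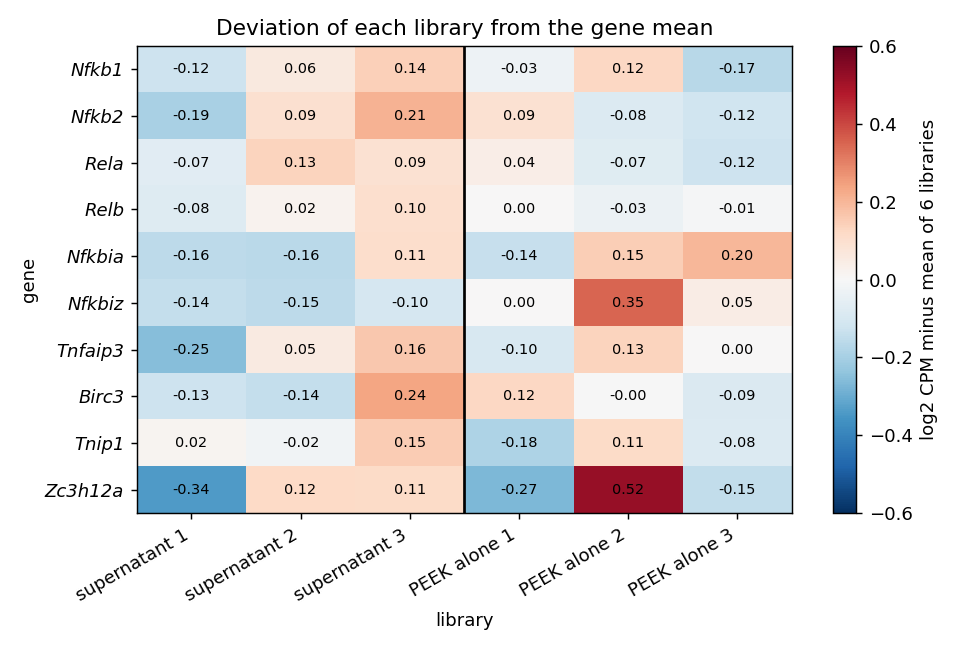
Log2 CPM of each gene minus its mean over the 6 libraries (colour and printed value), with libraries with supernatant left and those on PEEK alone right of the black line. Replicate 1 with supernatant is mostly blue and replicate 3 with supernatant mostly red, and the largest value is 0.52, for Zc3h12a in replicate 2 on PEEK alone.

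The rest of the pathway was read from 7 gene lists with 112 genes, of which 108 were in the table and 102 were tested. EdgeR called 0 of the 102, with 6 higher and 13 lower at an unadjusted p under 0.05, beside 8.95% of all tested genes. DESeq2 called 9, beside 1.73% of all genes: Birc2, Tlr2, Irf1, Cxcl1, Cxcl10, Cx3cl1, Nos2 and Mmp3 lower and Ccl20 higher. The groups did not overlap for 10 genes that were higher and 10 that were lower with supernatant, beside 7.83% and 7.36% of all tested genes. The median log2 fold change of the 102 was 0.0043.

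Among the 8 other Rel and IkB family genes, 0 were called and the median log2 fold change was 0.029. Rel, the subunit of lymphoid cells, had 3.92, 3.77 and 3.58 FPKM with supernatant, against 3.91, 3.73 and 3.35 FPKM on PEEK alone. Nfkbie, which encodes IkB-epsilon, averaged 5.40 ± 0.731 FPKM with supernatant and 6.33 ± 0.746 FPKM on PEEK alone (log2 fold change −0.24, edgeR adjusted p = 0.653). Bcl3, a nuclear IkB gene, stayed under 0.22 FPKM in every library (log2 fold change −0.27, adjusted p = 0.933), and Nfkbil1, a gene named for its likeness to IkB, had a log2 fold change of 0.33 (adjusted p = 0.574).

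Of the 12 genes of IkB kinases and upstream kinases, with their adaptors and regulatory subunit, 0 were called, with a median log2 fold change of 0.0010. The kinase subunit genes Ikbkb and Chuk had log2 fold changes of −0.025 and 0.0053. Tab2, which encodes an adaptor of the kinase TAK1, averaged 33.4 ± 1.08 FPKM with supernatant and 30.1 ± 0.883 FPKM on PEEK alone without overlap (log2 fold change 0.14, edgeR adjusted p = 0.615); Tbk1 and Tab1 had −0.11 and −0.13. Of 17 adaptor and ubiquitin enzyme genes edgeR called 0 and DESeq2 called 1, Birc2, beside 1.73% of all genes, and the median was 0.024. Birc2 had the smallest p there, followed by the adaptor genes Traf1, at 0.874 ± 0.436 FPKM with supernatant and 0.504 ± 0.103 FPKM on PEEK alone, and Traf5, at 0.491 ± 0.0734 and 0.620 ± 0.0510 FPKM in the same order (edgeR adjusted p = 0.604 and 0.672).

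Of 17 further negative regulators 0 were called, with a median log2 fold change of 0.012. Peli1, a ubiquitin ligase of Toll-like receptor signalling, averaged 5.10 ± 0.260 FPKM with supernatant and 4.14 ± 0.420 FPKM on PEEK alone (log2 fold change 0.29, edgeR adjusted p = 0.451). Tnip2, which encodes ABIN-2, averaged 4.17 ± 0.289 FPKM with supernatant and 5.09 ± 0.355 FPKM on PEEK alone (−0.30, adjusted p = 0.507), so Tnip1 and Tnip2 had values of opposite sign. Otud7b, which encodes the deubiquitinase Cezanne, had 0.16 (adjusted p = 0.638). For these 3, named for having the smallest p of the list, the groups did not overlap. Over the 17 this held for 3 genes higher and 1 lower with supernatant, beside 7.83% and 7.36% of all tested genes.

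Of 12 receptor genes edgeR called 0 and DESeq2 called 1, Tlr2, beside 1.73% of all genes, and the median was 0.00046. Tlr2, a receptor for bacterial lipoproteins, had 27.4, 28.7 and 25.6 FPKM with supernatant, against 32.6, 46.2 and 42.3 FPKM on PEEK alone. These groups did not overlap (log2 fold change −0.58, SE 0.13, edgeR adjusted p = 0.266, DESeq2 adjusted p = 0.00787). Il17rc, a subunit of the interleukin-17 receptor, had −0.32 (edgeR adjusted p = 0.308) and Tnfrsf12a, the receptor of TWEAK, 0.30 (0.498). The TNF receptor gene Tnfrsf1a and the interleukin-1 receptor gene Il1r1 had −0.056 and −0.062.

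The 24 target cytokine and adhesion genes had a median log2 fold change of −0.27. Their median size of 0.58 was the largest of the 7 lists, but several of the 24 had few counts, at which fold changes are less precise. Mmp13, for example, had 27, 8 and 19 counts with supernatant and 15, 34 and 10 on PEEK alone. EdgeR called 0 of the 24 and DESeq2 6, beside 1.73% of all genes with DESeq2. At an unadjusted edgeR p under 0.05, 4 were higher and 7 lower, beside 8.95% of all tested genes. The groups did not overlap for 4 genes higher and 4 lower with supernatant, beside 7.83% and 7.36% of all tested genes. Replicate 2 on PEEK alone held the highest FPKM for 13 of the 24, beside 13.3% of all tested genes, and without that library the median was −0.017. Icam1, an adhesion gene, had 79, 52 and 65 counts with supernatant, against 72, 427 and 76 counts in replicates 1, 2 and 3 on PEEK alone. What set that library apart was not tested. Cx3cl1, which encodes fractalkine, had 124, 101 and 107 FPKM with supernatant, against 144, 161 and 151 FPKM on PEEK alone (log2 fold change −0.47, SE 0.094, edgeR adjusted p = 0.254). Cxcl1, which encodes a neutrophil chemokine, averaged 82.4 ± 6.19 FPKM with supernatant and 110 ± 11.5 FPKM on PEEK alone (−0.44, adjusted p = 0.287). The stromelysin gene Mmp3 averaged 0.192 ± 0.0622 FPKM with supernatant and 0.924 ± 0.489 FPKM on PEEK alone (−2.25, adjusted p = 0.266). It had 19, 27 and 39 counts with supernatant and 52, 182 and 182 on PEEK alone. Of the genes higher without overlap, C3 averaged 41.9 ± 1.75 FPKM with supernatant and 21.5 ± 11.1 FPKM on PEEK alone (0.95, edgeR adjusted p = 0.416). Ccl20, another of them, averaged 0.994 ± 0.704 FPKM with supernatant and 0.202 ± 0.116 FPKM on PEEK alone (2.24, edgeR adjusted p = 0.359). Of the 12 survival and stress targets edgeR called 0 and DESeq2 called 1, Irf1, beside 1.73% of all genes. Their median was −0.0065. The transcription factor gene Irf1 averaged 17.0 ± 0.779 FPKM with supernatant and 22.9 ± 3.26 FPKM on PEEK alone (−0.45, edgeR adjusted p = 0.308, DESeq2 adjusted p = 0.0349), Tapbp, a gene of antigen presentation, had −0.34 (0.334), and Bcl2l1, a survival gene, 0.24 (0.620).

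**Figure D5:**
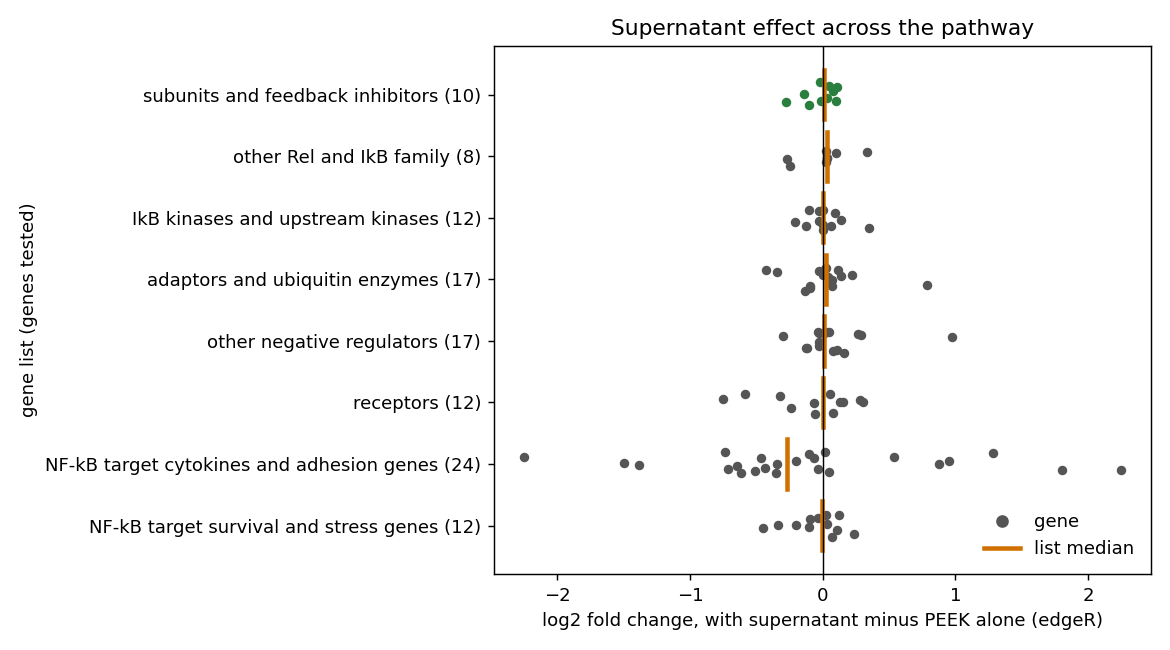
Log2 fold change (horizontal axis, with supernatant minus PEEK alone, edgeR) of each tested gene in the 10 subunits and feedback inhibitors (green) and in 7 other pathway lists (grey); orange bars are list medians. The target cytokine and adhesion genes reach from −2.25 to 2.24 with a median of −0.27, while the 10 genes stay between −0.27 and 0.10.

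The genes whose pattern over the 6 libraries was most like that of Nfkbia, among 9495 other protein-coding genes with a mean of at least 2 FPKM, were Klhdc8a, Cops5 and Ngrn, with a Pearson r of 0.98, 0.98 and 0.97 on the log2 CPM scale. Within the 10 genes, the r with Nfkbia was 0.62 for Tnfaip3, 0.61 for Nfkbiz and −0.48 for Rela. These values describe 6 libraries that share depth scaling. Klhdc8a, Cops5 and Ngrn were picked for the highest r among 9495 genes, so their high r follows from the choice and is no test.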

How the data were processed

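RNA of 6 libraries was sequenced after poly(A) selection and dUTP second strands, per the labels' protocols. Per the file headers, the authors deposited raw counts and FPKM for every gene in every library. The submitters' processing notes name cutadapt 1.9 and HISAT2 2.2.1. The sources used here do not give the genome build, annotation, counting tool, strand use or handling of molecular identifiers. Libraries were grouped by the treatment label. In each group, replicates 2 and 3 here are titled biological replicates 1 and 2, and the title of replicate 1 lacks such wording. Nothing says whether that first library was a separate culture, so the p-values reflect only variation among these libraries, part of which may be technical. No library was a copy of another.

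Counts were tested with edgeR 4.0.16 (R 4.3.3): TMM scaling, filterByExpr (minimum count 10, minimum total 15), a quasi-likelihood fit on group alone, and Benjamini-Hochberg adjustment over all 18177 tested genes. The standard error was the size of the log2 fold change divided by the square root of F, and 95% intervals used the fit's degrees of freedom. CPM were scaled by TMM. Ratios were tested by exact permutation with SciPy 1.17.1. Tests were checked on simulated data. The kB consensus was searched in RefSeq promoter windows and was chosen after the data were known, as was a narrower form with 2 fixed T tried before it. Alternatives were DESeq2 1.42.0, its size factors, no count filter, limma 3.58.1 on log2(FPKM + 1) or log2(FPKM + 0.1) for genes of at least 1 FPKM in 3 libraries, no FPKM filter, a replicate block, and leaving out each library.

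The 10 genes and the 7 lists were chosen with earlier results of these data known. Named list genes were those past the threshold or, if none, the 3 of smallest p in each list, plus all 10 genes, and the 3 genes most like Nfkbia; other named genes were chosen after their values were seen. Of the marker lists, 0 of 5 tested macrophage and 0 of 9 tested osteoblast genes were called. Same-numbered libraries had deviations that correlated at −0.03, −0.01 and 0.02, so numbers were not taken as pairs.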

Additional observations from a re-analysis of the deposited data

How the results depend on the processing

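None of the 10 genes was called under any alternative run, and the smallest adjusted p was 0.288, for Nfkbiz without replicate 1 with supernatant. Of 128 refits of single genes, 117 kept the direction; all 11 that reversed left out a library. Log2 fold changes ran from −0.020 to 0.13 for Nfkb1, −0.0071 to 0.20 for Nfkb2, −0.014 to 0.084 for Relb, −0.11 to 0.10 for Tnfaip3, −0.15 to 0.057 for Birc3 and −0.24 to 0.18 for Zc3h12a when each library was left out, and the difference in log2 ratio of Nfkb2 to Nfkb1 from −0.073 to 0.090; the cause was not tested. Those of Rela (0.065 to 0.17), Nfkbia (−0.23 to −0.077), Nfkbiz (−0.33 to −0.16) and Tnip1 (0.040 to 0.18) kept their sign but moved by over 1.5 times, as did the log2 ratios of Nfkbia to Rela (−0.39 to −0.14), Tnfaip3 to Nfkbia (0.036 to 0.19) and Relb to Rela (−0.12 to −0.038). In refits added after seeing the data, the median of the target cytokine and adhesion genes ran from −0.43 to −0.017, Il6 from −1.03 to −0.22, Lcn2 from −0.70 to 0.20 and Icam1 from −1.88 to −0.18, each nearest 0 or above it without replicate 2 on PEEK alone. Birc3 had no value in the limma fits with the FPKM filter, which it did not pass. Over all genes, edgeR called 3, DESeq2 315, and 0 were called with edgeR without the count filter or with the replicate block, and by limma without a filter; at an unadjusted p under 0.05 these 3 had 1903, 1330 and 2221 genes. Leaving out each library gave 0 to 199 calls, and 0 to 3 of the 102 pathway genes, where DESeq2 called 9: without replicate 1 with supernatant these were Cx3cl1 and Birc2, lower, and Traf1, higher. The replicate block changed no call among the 10 genes or the pathway lists; as the numbers do not pair the libraries, its count is given here only. The narrower form of the kB consensus, added after seeing the data, was held by the same 4 of 7 genes, beside 5.48% of all genes. At least 339 counts stood behind each value of the 10 genes, beside at most 17 for Bglap, whose values are less precise.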
